A study of Mus musculus with 11 samples.

Results

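Heparan sulfate genes are described here in 3 populations of CD4+ T cells from female C57BL/6 mice, for 10 genes of 1246 probe sets on a custom glycan gene chip. The genes were 2 core proteins (Sdc4, Gpc1), the enzyme that starts the chains (Xylt2), 2 chain-polymerising enzymes of the exostosin family (Ext1, Extl1), 4 chain-sulfating enzymes (Ndst1, Hs2st1, Hs6st1, Hs3st3b1) and heparanase (Hpse). Each gene was matched to the table by the RefSeq transcript in the probe set ID, and each had 1 probe set. Where a gene had several, the one chosen by the highest mean over all 11 arrays would have been used, and that mean is the only measured value in the rule. The 10 genes were, however, proposed with earlier results of these arrays in view. Their adjusted p-values, which come from a fit to the whole table, are therefore descriptions and not independent evidence.

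The populations, sorted by flow cytometry from spleen, were CD25+ CD45RBlow cells labelled regulatory T cells (Treg, 3 arrays, replicates 1, 2 and 4), CD25- CD45RBlow cells labelled activated or memory (4 arrays) and CD25- CD45RBhigh cells labelled naive (4 arrays). CD25 is the alpha chain through which T cells bind interleukin-2 tightly, and CD45RB is a splice form of CD45 that is lost after activation. All samples share strain and sex, and no sample carried a transgene or treatment by its labels. Mice of the CD25- samples were 4 to 6 weeks old by their labels, and the Treg labels name no age, so age and population cannot be told apart in the comparisons with Treg cells. Nothing states that replicates came from separate animals, so a p-value here reflects the spread among arrays, which may be technical.

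Heparan sulfate is a sugar chain built in the Golgi on the serines of a few core proteins. A xylosyltransferase starts a linker, exostosins lengthen the chain with alternating glucuronic acid and N-acetylglucosamine, and sulfotransferases then place N-, 2-O-, 6-O- and 3-O-sulfates, whose pattern determines which chemokines, cytokines and growth factors the chain binds. Heparanase cuts finished chains at the cell surface, in matrix and in lysosomes. Transcript levels do not measure the chains themselves.

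The arrays were alike in scale, with medians of 4.85 to 4.94 on the log2 scale, and arrays of 1 population correlated across probe sets at 0.991 to 0.998. The sort marker Il2ra, which encodes CD25, averaged 9.84 ± 0.17 in Treg (SD, n = 3), 6.17 ± 0.36 in CD45RBlow and 4.07 ± 0.27 in CD45RBhigh arrays (SD, n = 4 each). Of 7 general CD4 T cell genes on the marker list (Cd4, Cd3e, Cd3d, Cd3g, Cd5, Cd28, Ptprc) 0 had a named probe set, and Foxp3 had none either, so the T cell label could not be checked on them. The naive T cell markers Ccr7, Il7r and Igfbp4 were lower in CD45RBlow than in CD45RBhigh cells, and all 5 markers of activated and memory T cells (Cd44, Il2rb, Cxcr3, Ccl5, Ifng) were higher, as called by limma. With the population in the model, 257 probe sets differed between replicates 1 and 2 on one side and replicates 3 and 4 on the other, a grouping that no label explains. Samples with the same replicate number also deviated together, and the blocked fit, with a term for each number, is given where it changed a call of a heparan sulfate gene. RMA gives no detection call. In sorted T cells, Csf1r, a macrophage gene, should be silent, and it lay between 4.91 and 5.19 on these arrays, so members with values of about 5 or less (Hpse, Extl1, Hs3st3b1, Hs2st1, and Sdc4 in CD25- cells) may lie close to their background, and the size of their differences may be a lower bound.

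Sdc4, Hpse and Extl1 were higher and Xylt2, Hs6st1, Hs3st3b1 and Hs2st1 lower in Treg than in CD45RBhigh cells, while Gpc1 stood apart as highest in CD45RBlow cells. Ext1 and Ndst1 did not pass the test in any comparison. In Treg against CD45RBhigh cells 3 of the 10 genes rose and 4 fell at an adjusted p of 0.05 in limma, where 10.3% of all probe sets rose and 8.59% fell (18.9% in either direction). In Treg against CD45RBlow cells 2 rose and 2 fell, beside 6.74% and 5.78% of all probe sets (12.5%). In CD45RBlow against CD45RBhigh cells 1 rose and 1 fell, beside 7.62% and 4.98% (12.6%). Because the genes were proposed with such differences known, nothing is read from these shares. With the replicate number as a block 5 members passed in the last comparison, 3 higher and 2 lower, where 21.7% of all probe sets passed. In the comparisons of Treg with CD45RBhigh and with CD45RBlow cells the block gave 7 and 5 members, where 26.5% and 19.7% of all probe sets passed. Groups did not overlap for 7 members in Treg against CD45RBhigh cells (25% of all probe sets), 6 in Treg against CD45RBlow cells (21.3%) and 4 in CD45RBlow against CD45RBhigh cells (17.8%). The count of 7 in Treg against CD45RBhigh cells fell to 3 without Treg replicate 2 and to 4 without Treg replicate 1, Treg replicate 4 or CD45RBhigh replicate 4. The count in CD45RBlow against CD45RBhigh cells fell to 1 without CD45RBlow replicate 1, 3 or 4 or CD45RBhigh replicate 2, 3 or 4.

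**Figure D1:**
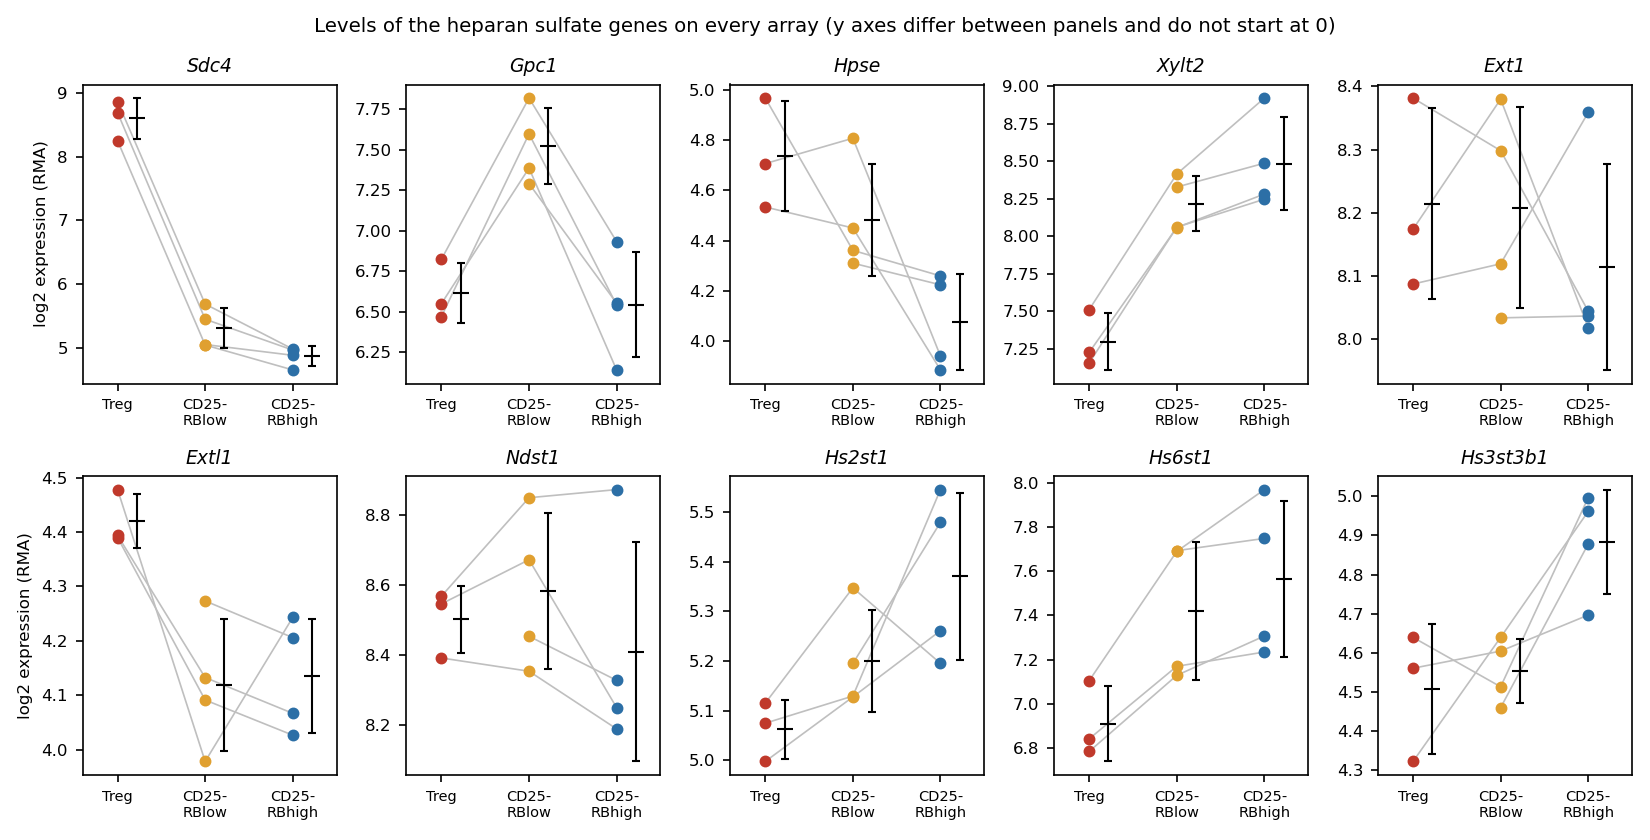
Log2 expression of each of the 10 genes (y axis, RMA scale, which differs between panels) on every array, by population (x axis). Points are arrays, grey lines join arrays of the same replicate number, and bars beside the points are the mean and SD (n = 3 for Treg, n = 4 for each CD25- population). Sdc4 lies at 8.25 to 8.87 in Treg arrays and below 5.7 elsewhere, and Gpc1 is highest in the CD45RBlow arrays.

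Sdc4 encodes syndecan-4, a transmembrane core protein that carries heparan sulfate and acts as a co-receptor at the cell surface and in focal adhesions. It read 8.70, 8.87 and 8.25 in Treg replicates 1, 2 and 4, against 5.45, 5.68, 5.05 and 5.04 in CD45RBlow replicates 1 to 4 and 4.96, 4.98, 4.88 and 4.65 in CD45RBhigh replicates 1 to 4. All Treg arrays lay above all other arrays, and the CD45RBlow arrays lay above the CD45RBhigh arrays without overlap. The means were 8.61 ± 0.32 in Treg (SD, n = 3), 5.30 ± 0.32 in CD45RBlow and 4.87 ± 0.15 in CD45RBhigh cells (SD, n = 4 each).

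The difference was 13.4-fold for Treg over CD45RBhigh cells (log2 fold change 3.74, SE 0.18, limma adjusted p = 9.31e-08) and 9.87-fold for Treg over CD45RBlow cells (3.30, SE 0.18, adjusted p = 2.99e-07). By absolute log2 fold change Sdc4 was number 7 of all probe sets in the comparison with CD45RBhigh cells and number 4 in the one with CD45RBlow cells. Between CD45RBlow and CD45RBhigh cells the log2 fold change was 0.44 (SE 0.17, adjusted p = 0.122), and with the replicate number as a block it passed (0.44, SE 0.08, adjusted p = 0.00317). By replicate number the Treg minus CD45RBlow difference varied little, at 3.25, 3.19 and 3.21 for replicates 1, 2 and 4.

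The promoters of Sdc4, Hpse and Xylt2 are printed because these genes had the most stable differences between Treg and CD45RBhigh cells among the members, in both directions. Sequences are from RefSeq (GRCm38.p6), read 5′ to 3′ on the gene's strand and end at the last base before the gene's annotated start, and capitals mark motif matches.
Sdc4, chr2:164443189-164443438, minus strand: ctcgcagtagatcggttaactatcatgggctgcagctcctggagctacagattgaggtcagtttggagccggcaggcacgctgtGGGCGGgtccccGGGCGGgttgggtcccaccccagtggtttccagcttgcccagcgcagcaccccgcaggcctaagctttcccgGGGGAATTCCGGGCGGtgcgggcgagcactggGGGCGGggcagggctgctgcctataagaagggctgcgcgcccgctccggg
Hpse, chr5:100719717-100719966, minus strand: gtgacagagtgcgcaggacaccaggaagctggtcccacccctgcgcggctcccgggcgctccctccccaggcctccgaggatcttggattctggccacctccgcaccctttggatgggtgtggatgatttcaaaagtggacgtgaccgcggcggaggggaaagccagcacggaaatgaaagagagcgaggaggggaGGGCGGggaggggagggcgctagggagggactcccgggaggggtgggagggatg
Xylt2, chr11:94677519-94677743, minus strand: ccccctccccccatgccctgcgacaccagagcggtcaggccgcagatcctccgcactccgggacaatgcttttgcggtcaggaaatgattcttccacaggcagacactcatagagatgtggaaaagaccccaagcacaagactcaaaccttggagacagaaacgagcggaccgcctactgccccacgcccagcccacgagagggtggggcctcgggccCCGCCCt

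Both strands of these stretches were searched for 6 motifs: the GC box (GGGCGG), the NF-kappaB consensus, AP-1 (TGANTCA), STAT (TTCNNNGAA), ETS (CCGGAA) and forkhead (GTAAACA). The Sdc4 stretch held 4 GC boxes and 1 match to the NF-kappaB consensus, from base -82 to base -73 before the start. That match overlaps an ETS match on the other strand, from -76 to -71, which in turn overlaps a GC box. The Hpse stretch held 1 GC box. Of the Xylt2 window only the 225 bases before the gene's start are printed, with 1 GC box, and its whole window of 250 bases held 3. In 32851 mouse promoter windows of 250 bases before a start, 32.7% held a GC box, 7.25% the NF-kappaB consensus and 12.03% the ETS core, so these letters are common. A match is a description of the sequence. The promoter table held 7 of the 10 genes.

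Gpc1 encodes glypican-1, a core protein that carries heparan sulfate and is held on the membrane by a lipid anchor. It read 6.47, 6.55 and 6.83 in Treg replicates 1, 2 and 4, 7.60, 7.39, 7.29 and 7.82 in CD45RBlow replicates 1 to 4, and 6.54, 6.14, 6.55 and 6.93 in CD45RBhigh replicates 1 to 4. The CD45RBlow arrays lay above all arrays of both other populations, which overlapped each other. Gpc1 was 1.88-fold lower in Treg than in CD45RBlow cells (log2 fold change -0.91, SE 0.18, limma adjusted p = 0.00549) and 1.97-fold higher in CD45RBlow than in CD45RBhigh cells (0.98, SE 0.16, adjusted p = 0.00182).

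Between Treg and CD45RBhigh cells the Gpc1 difference was 0.07 on the log2 scale, with a 95% interval of -0.32 to 0.46, so a change of up to about that size in either direction is not excluded. By replicate number Gpc1 was lower in Treg than in CD45RBlow cells in 3 of 3 pairs, by -0.84 to -1.13, and higher in CD45RBlow than in CD45RBhigh cells in 4 of 4 pairs, by 0.74 to 1.24. The core proteins Sdc4 and Gpc1 thus had their highest level in different populations.

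Xylt2 encodes 1 of the xylosyltransferases that attach the first sugar of the linker, a step that heparan sulfate shares with chondroitin sulfate. It read 7.16, 7.23 and 7.51 in Treg replicates 1, 2 and 4, against 8.06, 8.06, 8.33 and 8.41 in CD45RBlow and 8.25, 8.28, 8.49 and 8.92 in CD45RBhigh replicates 1 to 4. Treg arrays lay below all CD25- arrays, and the CD25- populations overlapped. Its probe set has the suffix s, so its signal may not be specific to 1 transcript.

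Xylt2 was 2.27-fold lower in Treg than in CD45RBhigh cells (log2 fold change -1.19, SE 0.16, limma adjusted p = 0.000284) and 1.89-fold lower than in CD45RBlow cells (-0.92, SE 0.16, adjusted p = 0.0029). The difference between CD45RBlow and CD45RBhigh cells was -0.27 (SE 0.15, adjusted p = 0.261). With the replicate number as a block it passed (-0.27, SE 0.08, adjusted p = 0.0281) but not with the number as a random block (adjusted p = 0.133), and it was negative in 4 of 4 same-number pairs.

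Ext1 encodes a subunit of the heparan sulfate polymerase, which works as a complex with the product of Ext2. Its levels were 8.09 to 8.38 in Treg, 8.03 to 8.38 in CD45RBlow and 8.02 to 8.36 in CD45RBhigh arrays, and all groups overlapped. The log2 difference between Treg and CD45RBhigh cells was 0.10 (95% interval -0.15 to 0.35), and between Treg and CD45RBlow cells 0.01 (-0.24 to 0.26). Of the pair of genes for the polymerase, Ext2 also did not pass, with means of 8.65 ± 0.16 in Treg (SD, n = 3), 8.65 ± 0.13 in CD45RBlow and 8.67 ± 0.18 in CD45RBhigh cells (SD, n = 4 each).

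Extl1 encodes an exostosin-like glycosyltransferase. It read 4.48, 4.39 and 4.39 in Treg replicates 1, 2 and 4, against 3.98, 4.09, 4.27 and 4.13 in CD45RBlow and 4.24, 4.03, 4.21 and 4.07 in CD45RBhigh replicates 1 to 4. Treg arrays were above all others by a small margin, at levels that may be near background. The log2 fold change was 0.28 over CD45RBhigh cells (SE 0.08, limma adjusted p = 0.0304) and 0.30 over CD45RBlow cells (SE 0.08, adjusted p = 0.0304). Centring the arrays on their 75th percentile ended both calls (adjusted p = 0.256 and 0.226), and a fit of the compared arrays alone ended the call over CD45RBlow cells (adjusted p = 0.0510). Over CD45RBhigh cells the call also ended without any 1 of the Treg replicates or without CD45RBhigh replicate 2 or 4 (adjusted p up to 0.109), and over CD45RBlow cells without any 1 of the Treg replicates or without CD45RBlow replicate 1, 2 or 4 (up to 0.114).

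**Figure D2:**
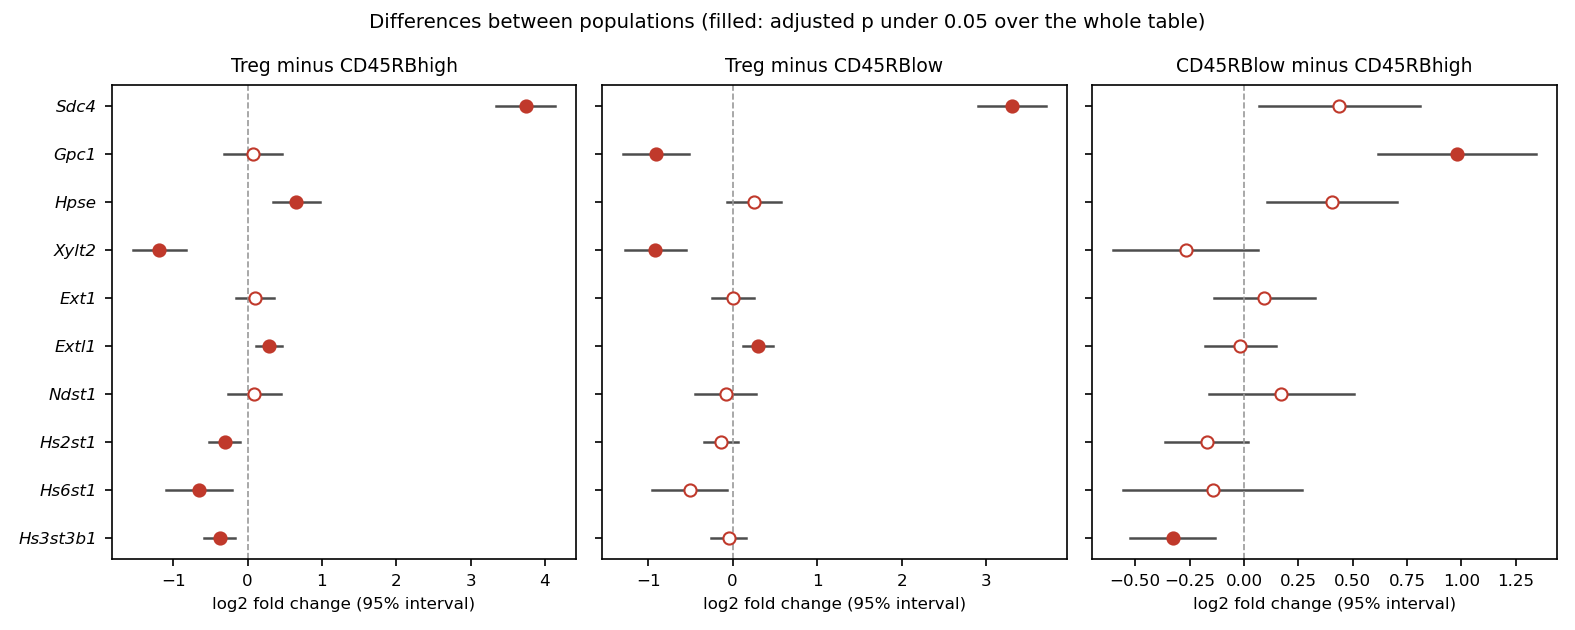
Log2 fold changes of the 10 genes (x axis, with 95% intervals as lines) in the 3 comparisons. Filled points passed an adjusted p of 0.05 in limma over the whole table. The scale of the x axis differs between panels, and Sdc4 lies at 3.74 and 3.30 in the comparisons with Treg cells while all other members lie between -1.19 and 0.98.

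Of the 4 sulfating enzymes 3 were called lower in Treg than in CD45RBhigh cells, where 8.59% of all probe sets were, and each of these calls ended when some single arrays were left out. Of the 11 other chain-modifying genes measured, limma called 0 in Treg against CD45RBhigh cells, and 0 at an unadjusted p under 0.05 (with the block also 0). Ndst1, an N-deacetylase/N-sulfotransferase that acts before the other sulfotransferases, was not called, at 8.39 to 8.57 in Treg, 8.35 to 8.85 in CD45RBlow and 8.19 to 8.87 in CD45RBhigh arrays. These ranges overlapped, and the log2 difference between Treg and CD45RBhigh cells was 0.09 (95% interval -0.27 to 0.45).

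Hs6st1, which adds 6-O-sulfates to glucosamine, read 6.84, 6.78 and 7.10 in Treg replicates 1, 2 and 4, against 7.17, 7.13, 7.69 and 7.69 in CD45RBlow and 7.23, 7.31, 7.75 and 7.97 in CD45RBhigh replicates 1 to 4. All Treg arrays were below all CD25- arrays, whereas the CD25- populations overlapped. The log2 fold change was -0.65 against CD45RBhigh cells (SE 0.20, limma adjusted p = 0.0453) and -0.51 against CD45RBlow cells (SE 0.20, adjusted p = 0.152).

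Replicates 1 and 2 read lower than replicates 3 and 4 for Hs6st1 in every population, by -0.50 on the log2 scale with the population in the model (adjusted p = 0.000367). Sdc4 (0.41, adjusted p = 0.00365) and Xylt2 (-0.36, adjusted p = 0.00463) also differed between these replicate sets. With the replicate number as a block, the fall of Hs6st1 in Treg cells was -0.58 against CD45RBhigh cells (SE 0.09, adjusted p = 0.000516) and -0.43 against CD45RBlow cells (SE 0.09, adjusted p = 0.00493), so the comparison with CD45RBlow cells then passed. With the number as a random block that comparison did not pass (-0.48, SE 0.16, adjusted p = 0.0649). Without the block the call against CD45RBhigh cells ended without any 1 of the Treg replicates, without CD45RBlow replicate 1, or without CD45RBhigh replicate 3 or 4, at adjusted p up to 0.150.

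Hs3st3b1, which adds the rare 3-O-sulfate, read 4.56, 4.32 and 4.64 in Treg replicates 1, 2 and 4 and 4.60, 4.64, 4.46 and 4.51 in CD45RBlow replicates 1 to 4, against 4.70, 4.96, 4.88 and 4.996 in CD45RBhigh replicates 1 to 4. Both CD45RBlow-sorted populations, Treg and CD25-, lay below the CD45RBhigh arrays and overlapped each other. The log2 fold change was -0.38 for Treg against CD45RBhigh cells (SE 0.09, limma adjusted p = 0.0166) and -0.33 for CD45RBlow against CD45RBhigh cells (SE 0.09, adjusted p = 0.0320). The first of these ended without Treg replicate 2 (-0.28, adjusted p = 0.0806). The second ended without CD45RBlow replicate 1, 3 or 4 or CD45RBhigh replicate 2, 3 or 4, at adjusted p up to 0.0849.

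Hs2st1, which adds 2-O-sulfates to uronic acid, lay at 4.9975 to 5.12 in Treg, 5.13 to 5.35 in CD45RBlow and 5.20 to 5.55 in CD45RBhigh arrays. Treg arrays were below all others, and the CD25- populations overlapped. The log2 fold change against CD45RBhigh cells was -0.31 (SE 0.09, limma adjusted p = 0.0425), which passed narrowly. It ended without any 1 of the Treg replicates, without CD45RBlow replicate 2, 3 or 4 or without CD45RBhigh replicate 3 or 4 (adjusted p up to 0.143), with arrays centred on their medians (0.0504) and in a fit of the compared arrays alone (0.0769).

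Hpse encodes heparanase, the endoglycosidase that cuts heparan sulfate chains. It read 4.71, 4.53 and 4.97 in Treg replicates 1, 2 and 4, against 4.81, 4.45, 4.31 and 4.36 in CD45RBlow and 3.94, 3.88, 4.22 and 4.26 in CD45RBhigh replicates 1 to 4. Treg and CD45RBlow arrays overlapped, and both lay above all CD45RBhigh arrays. Hpse was 1.58-fold higher in Treg than in CD45RBhigh cells (log2 fold change 0.66, SE 0.15, limma adjusted p = 0.00863), and in same-number pairs by 0.77, 0.65 and 0.71.

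Between Treg and CD45RBlow cells the Hpse log2 fold change was 0.25 (SE 0.15, adjusted p = 0.354), and between CD45RBlow and CD45RBhigh cells 0.40 (SE 0.13, adjusted p = 0.0787). By replicate number the Treg minus CD45RBlow difference was -0.10, 0.08 and 0.61 for replicates 1, 2 and 4, so it was largest in replicate 4. The comparison of the CD25- populations passed with the replicate number as a block (0.40, SE 0.12, adjusted p = 0.0402). It differed between replicate numbers, at 0.87 and 0.56 for replicates 1 and 2 and 0.09 and 0.10 for replicates 3 and 4, so its size rests on replicates 1 and 2.

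Of the members, Sdc4, Xylt2 and Hpse kept an adjusted p under 0.05 between Treg and CD45RBhigh cells under each of 23 alternatives, with log2 fold changes of 3.49 to 3.92 for Sdc4, -1.29 to -1.04 for Xylt2 and 0.54 to 0.76 for Hpse. Of the members called between Treg and CD45RBhigh cells, Sdc4 and Hpse had population means in the order Treg, CD45RBlow, CD45RBhigh from high to low. Xylt2, Hs6st1, Hs2st1 and Hs3st3b1 had the opposite order. Between neighbours in these orders, without the block, the step between Treg and CD45RBlow cells passed for Sdc4 and Xylt2 and the step between CD45RBlow and CD45RBhigh cells for Hs3st3b1. The other neighbouring means of these 6 genes did not pass.

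The rest of the pathway was described with 43 further genes in 7 lists by role, 1 probe set each, chosen for their roles with earlier results known. In Treg against CD45RBhigh cells 2 rose and 5 fell, with a median log2 fold change of -0.02 beside -0.04 over all probe sets, and with the replicate block 2 rose and 8 fell. In Treg against CD45RBlow cells 1 rose and 2 fell (median 0.04 beside 0.04), and with the replicate block 3 rose and 2 fell. In CD45RBlow against CD45RBhigh cells limma called 0 that rose and 2 that fell (median -0.09 beside -0.08), or 2 and 9 at an unadjusted p under 0.05, and 1 and 9 with the replicate block. The count in Treg against CD45RBhigh cells was 4 without Treg replicate 2 and 3 without Treg replicate 4, and the count in CD45RBlow against CD45RBhigh cells was 1 without CD45RBlow replicate 3 or 4. Over all probe sets 18.9%, 12.5% and 12.6% passed in these 3 comparisons, and with the replicate block 26.5%, 19.7% and 21.7%. At an unadjusted p under 0.05 in limma, 129 of all 1246 probe sets rose and 225 fell in CD45RBlow against CD45RBhigh cells. Nothing is read from the counts. Of the 53 measured genes 10 averaged under 3.64, the lower quartile of the table, in every population: Gpc4, Gpc5, Gpc6, Ndst3, Ndst4, Hs6st2, Hs3st1, Hs3st3a1, Hs3st5 and Sulf1.

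Among the other core proteins Tgfbr3, betaglycan, a co-receptor for TGF-beta that can carry heparan sulfate, moved opposite to Sdc4. It averaged 7.43 ± 0.16 in Treg (SD, n = 3), 9.69 ± 0.16 in CD45RBlow and 10.41 ± 0.10 in CD45RBhigh cells (SD, n = 4 each), with groups that did not overlap. Its log2 fold change was -2.27 for Treg against CD45RBlow cells (SE 0.10, limma adjusted p = 1.12e-07) and -0.72 for CD45RBlow against CD45RBhigh cells (SE 0.10, adjusted p = 0.000344). Srgn, serglycin, the proteoglycan of secretory granules, rose in Treg over CD45RBhigh cells, at 12.71 ± 0.18 (SD, n = 3) and 11.93 ± 0.40 (SD, n = 4; log2 fold change 0.78, SE 0.22, limma adjusted p = 0.0280). With the block Srgn also passed in CD45RBlow over CD45RBhigh cells (0.48, adjusted p = 0.0121). Gpc2, a glypican, and Agrn, agrin, passed only with the block, lower in Treg than in CD45RBhigh cells (-0.24, adjusted p = 0.0386, and -0.33, adjusted p = 0.0442). The other syndecans did not follow Sdc4: Sdc1 and Sdc2 read 4.60 to 4.70 and 4.22 to 4.43 in Treg arrays, and Sdc3 6.96 to 7.17, and none of these 3 passed in limma without the block. With the block Sdc3 was lowest in CD45RBlow cells, with log2 fold changes of 0.27 for Treg over CD45RBlow (adjusted p = 0.0247) and -0.23 for CD45RBlow against CD45RBhigh (adjusted p = 0.0357).

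In the linker, B4galt7, which adds the galactose after xylose, fell with Xylt2 in Treg against CD45RBhigh cells, though by less (log2 fold change -0.35, SE 0.09, limma adjusted p = 0.0152). It was also lower in CD45RBlow than in CD45RBhigh cells (-0.30, SE 0.08, adjusted p = 0.0319). B3galt6, which adds the next galactose, passed only with the block, lower in Treg and in CD45RBlow cells than in CD45RBhigh cells (-0.23, adjusted p = 0.0476, and -0.22, adjusted p = 0.0402). Of the lysosomal enzymes that degrade heparan sulfate, Idua, an iduronidase (-0.48, SE 0.11, adjusted p = 0.0131), and Sgsh, a sulfamidase (-0.49, SE 0.10, adjusted p = 0.00504), were lower in Treg than in CD45RBhigh cells, opposite in direction to Hpse. Sgsh was also lower than in CD45RBlow cells (-0.40, SE 0.10, adjusted p = 0.0229). Like that of Xylt2, the probe set of Sgsh has the suffix s, so its signal may not be specific to a single transcript. With the block Idua (-0.33, adjusted p = 0.0207), Gusb, a glucuronidase (-0.30, adjusted p = 0.0233), and Naglu, a glucosaminidase (-0.55, adjusted p = 0.000783), were lower in CD45RBlow than in CD45RBhigh cells, as was Glce, the epimerase that makes iduronic acid in the chain (-0.20, adjusted p = 0.0497). Naglu was then higher in Treg than in CD45RBlow cells (0.52, adjusted p = 0.00238), opposite in direction to Sgsh.

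Of the supply genes, Slc35d1, a transporter that brings nucleotide sugars for glycosaminoglycan chains into the endoplasmic reticulum, rose in Treg cells, at 7.03, 6.88 and 6.77 in replicates 1, 2 and 4. CD45RBlow replicates 1 to 4 read 5.44, 5.51, 5.23 and 5.65, and CD45RBhigh replicates 1 to 4 read 5.41, 5.61, 5.54 and 6.55. The log2 fold change was 1.12 over CD45RBhigh cells (SE 0.23, limma adjusted p = 0.00529) and 1.44 over CD45RBlow cells (SE 0.23, adjusted p = 0.00132). Slc35b3, a transporter of the sulfate donor PAPS, fell in Treg against CD45RBhigh cells (-0.37, SE 0.11, adjusted p = 0.0458), with overlapping groups, and with the block it was also lower in CD45RBlow than in CD45RBhigh cells (-0.34, adjusted p = 0.00278).

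**Figure D3:**
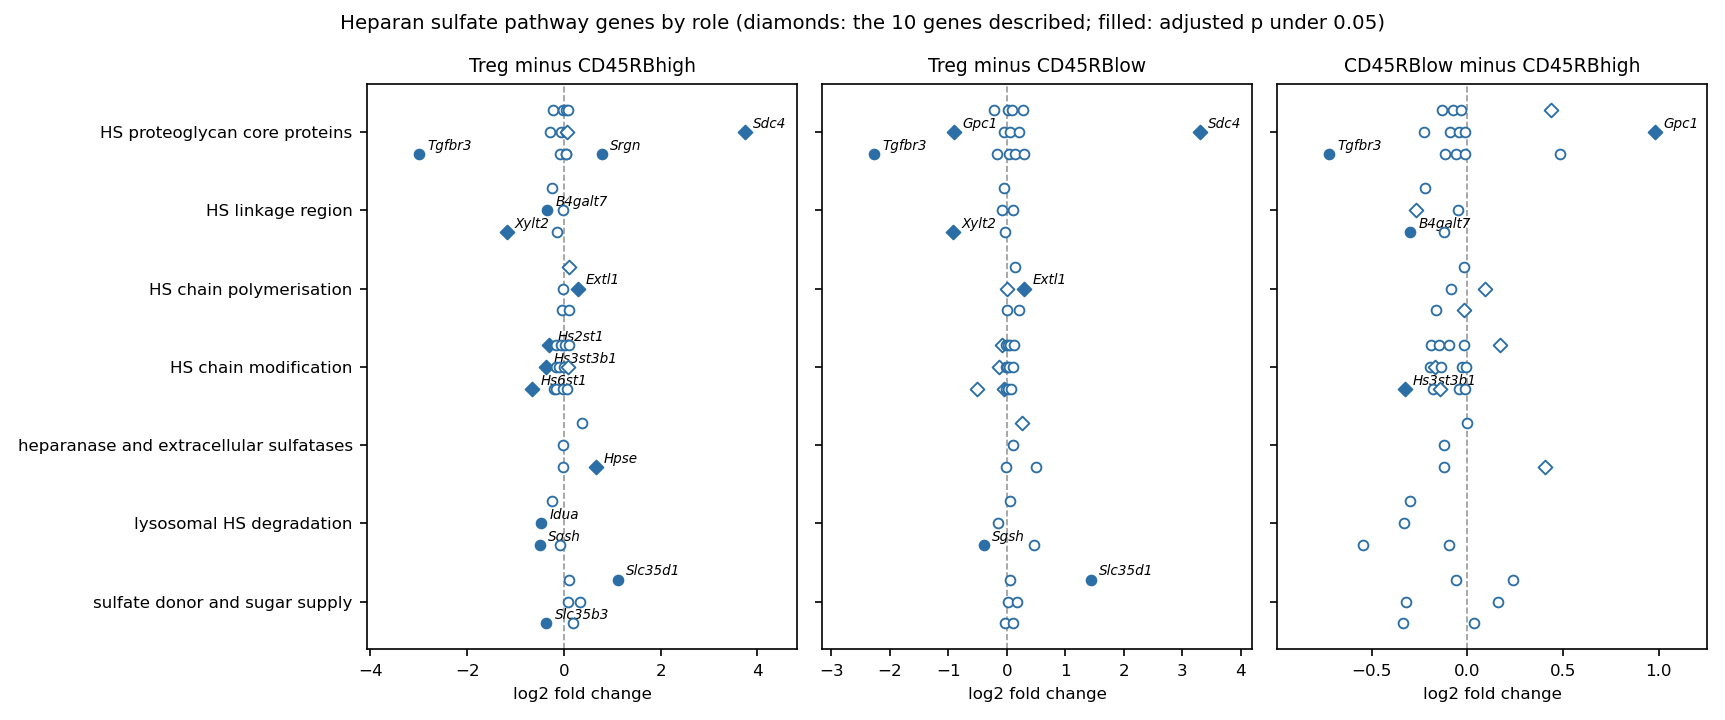
Log2 fold changes (x axis) of the 53 measured heparan sulfate genes by role (y axis) in the 3 comparisons. Diamonds are the 10 genes described above and circles the other 43, and filled symbols passed an adjusted p of 0.05 in limma and carry the gene's name. The vertical offset within a role only separates the points. Most symbols are open and near 0, and Sdc4 and Tgfbr3 lie at the opposite ends of both comparisons with Treg cells.

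The genes whose profile over the 11 arrays was most like that of a member were found by the root mean square difference of log2 values, after each gene was centred on the mean of its population means, among 908 other named genes. Nearest to Sdc4 were Cxcl2, a chemokine (0.36), Il10, an immunosuppressive cytokine (0.40), and Il1r2, a decoy receptor for interleukin-1 (0.52). Nearest to Gpc1 were Cd93, a transmembrane glycoprotein (0.22), Csf2, the cytokine GM-CSF (0.22), and Smo, the Hedgehog signal transducer (0.31). Among the genes nearest to Hpse were Glb1, a lysosomal galactosidase (0.18), and Uap1l1 (0.19). Nearest to Xylt2 were Galnt10 (0.14) and Galnt6 (0.16), which start mucin-type O-glycans, and Hdac5, a histone deacetylase (0.22). For Sdc4 the nearest distances were larger than for the other 3 members, whose own ranges over the arrays were smaller.

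Markers of other cells that make heparan sulfate proteoglycans or heparanase were set beside these results, as lists of summed linear signal per array. For 9 of 14 myeloid and dendritic cell markers the sum was 140.0 to 152.4 in Treg, 134.5 to 148.1 in CD45RBlow and 144.1 to 156.7 in CD45RBhigh arrays, and no single value exceeded 5.19, that of Csf1r. Cd209a was lower in Treg than in CD45RBhigh cells (log2 fold change -0.24, limma adjusted p = 0.0476). Both Cd209a (-0.26, adjusted p = 0.0320) and Clec10a (-0.31, adjusted p = 0.0170) were lower in CD45RBlow than in CD45RBhigh cells. Adgre1, Clec4a2, Mrc1 and Siglecf averaged under the lower quartile of the table in every population. The other 5 read at or below 5.19, and Csf1r is itself among them. Its silence was assumed above, so the presence of myeloid RNA was not tested by these values. For 2 of 6 platelet and erythroid markers (Selp, Pf4) the sum was 53.3 to 66.7 in Treg, 44.9 to 53.3 in CD45RBlow and 47.9 to 53.8 in CD45RBhigh arrays. Selp was higher in Treg than in CD45RBhigh cells (log2 fold change 0.37, SE 0.09, limma adjusted p = 0.0152) and than in CD45RBlow cells (0.48, SE 0.09, adjusted p = 0.0049). Pf4 did not pass in any comparison.

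For 4 of 7 B and plasma cell markers the sum was 398.1 to 456.6 in Treg, 266.8 to 337.8 in CD45RBlow and 278.1 to 342.5 in CD45RBhigh arrays, with Cd72 highest in Treg cells and Cd22 highest in CD45RBlow cells (6.35 ± 0.04 in Treg, SD, n = 3; 6.64 ± 0.13 in CD45RBlow and 6.06 ± 0.06 in CD45RBhigh cells, SD, n = 4 each), while the plasma cell marker Sdc1 read 4.45 to 4.73 on all arrays. Kit, the 1 mast cell marker of 4 that was measured, read 4.31 to 4.56 in Treg, 3.71 to 3.92 in CD45RBlow and 3.47 to 4.04 in CD45RBhigh arrays. Kit was higher in Treg than in CD45RBhigh cells (log2 fold change 0.70, limma adjusted p = 0.00163) and than in CD45RBlow cells (0.59, adjusted p = 0.00732). For the 3 natural killer and CD8 T cell markers of 6 that were measured, the sum ran the other way. It was 35.3 to 43.2 in Treg, 295.2 to 424.0 in CD45RBlow and 520.0 to 709.6 in CD45RBhigh arrays. Klrd1, the brightest of them in CD25- cells, had this order, at 3.40 to 4.23, 8.01 to 8.53 and 8.94 to 9.40. Klrc1 did not, and was higher in CD45RBlow than in CD45RBhigh cells (log2 fold change 0.59, limma adjusted p = 0.0188). Klra3 averaged under the lower quartile of the table in every population. The 3 endothelial and stromal markers of 7 that were measured averaged under the lower quartile of the table in every population. The part of the B cell, platelet, mast cell and natural killer markers in the results was not tested. In sorted bulk samples, fewer cells that express a gene and less RNA per cell cannot be told apart.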

How the data were processed

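Total RNA was amplified, labelled with biotin and hybridised to 1 array per sample of a custom Affymetrix chip. The authors deposited log2 values for each probe set from RMA (Robust Multichip Average), per the series text and the submitters' processing notes. Its version is not given in the sources used here, and the log2 scale is read from the range of values (1.99 to 14.2). RMA includes quantile normalization, which can remove a shift common to all probe sets. In the deposited values, 321 of 1246 probe sets had a higher mean in CD45RBlow than in CD45RBhigh cells, at a median log2 fold change of -0.08. The blocked fits were not rescaled for this, so its part in small blocked falls of that comparison was not tested. The values were used as deposited, with no array left out, and precision is limited by how many arrays there are.

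RefSeq identifiers gave symbols for 963 of 1246 probe sets (909 genes) through a mouse annotation (GRCm38.p6) used for names and promoters. Members and gene lists were chosen with earlier results of these data known. In limma 3.58.1 (R 4.3.3) each probe set got a mean for each population over the 11 arrays, and its variance was moderated by empirical Bayes (2.87 prior and 8 residual degrees of freedom). Two-sided p-values of each comparison were adjusted over its 1246 probe sets by Benjamini-Hochberg, with a threshold of 0.05. The fit without a block was tested on simulated data with independent noise on each array. That test therefore does not cover deviations shared by arrays of the same replicate number. The 3 comparisons share arrays. Besides the members, genes were named where a pathway gene passed in any comparison, or as the 3 nearest profiles of 4 members, except for items that are not reported here. Ext2, the other syndecans, pathway genes called only with the block and single cell markers were named after their values were seen.

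Same-numbered arrays of different populations deviated from their population means together, with correlations of 0.31 to 0.56 in all 10 pairs (median 0.46). The main fit had population means only and ignored the numbers, which entered as a block in alternative fits. Counts and adjusted p-values come from the main fit unless an alternative is named. The fits that left out an array also had no block. The 30 pairs of other numbers had a median of -0.31 but reached 0.58, and some of the highest joined replicates 1 and 2 or 3 and 4, so the block also carries the difference between these sets. The labels do not state what the numbers mark. Alternatives were a fixed or random replicate block, only the compared arrays, 3 other scalings, a filter on dim rows, trended and robust moderation, a single row for each gene and leaving out each array. Fits by replicate set (1 and 2, 3 and 4) were added with the data in view. Figures were drawn with matplotlib 3.10.9 in Python 3.11.15 with pandas 2.3.3.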

Additional observations from a re-analysis of the deposited data

Results flagged for a closer look

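In CD45RBhigh replicate 4, Ext1 read 8.36, against 8.04, 8.02 and 8.04 in CD45RBhigh replicates 1, 2 and 3. The gap to the nearest array was 0.924 of the range of the 4 arrays, above the critical value of 0.829 of Dixon's test. Of the 20 groups of 4 arrays tested over the members, 1 was past this value, and chance gives about 1 in 20. Treg groups, with 3 arrays, were not tested.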

How the results depend on the processing

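With the replicate number as a block, calls among all probe sets were 330 (151 higher, 179 lower) for Treg against CD45RBhigh, 245 for Treg against CD45RBlow and 271 for CD45RBlow against CD45RBhigh cells, against 235, 156 and 157 without it. Members called in the last comparison were 5 (4 with a random block), and further pathway genes were 5 for Treg against CD45RBlow (5 with a random block) and 10 for CD45RBlow against CD45RBhigh (7 with a random block). The block changed no other call of a member or further pathway gene than those given above. Calls of cell markers are given without the block only. The last count was 4 with 75th percentile centring, 9 with quantile normalization and 1 with trend and robust moderation. Centring on the 75th percentile gave 98 probe sets higher and 132 lower for Treg against CD45RBhigh, where the values as deposited gave 128 and 107, and quantile normalization gave 98 higher and 129 lower for CD45RBlow against CD45RBhigh, where they gave 95 and 62. With replicate set as a term, calls were 238 and 247 in the last 2 comparisons, further pathway genes 6 and 9, and members 5 in the last. Replicates 1 and 2 alone gave 4 members for Treg against CD45RBhigh and 6 further genes for Treg against CD45RBlow. The share of all probe sets in that fit is not given here, so nothing is read from these counts. Replicates 3 and 4 alone, with 1 Treg array assumed to vary like the others, gave 88, 49 and 63 probe sets, 4, 2 and 0 members (4 at an unadjusted p under 0.05 in limma for the 0) and 1 further gene in each comparison. Leaving out 1 array gave 3 to 7 members and 3 to 7 further genes for Treg against CD45RBhigh, and 1 to 2 and 1 to 3 for CD45RBlow against CD45RBhigh cells.

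No member past the threshold changed sign under any alternative. Signs that turned belonged to differences that did not pass. For Ext1 between Treg and CD45RBlow cells the log2 differences were -0.036 with the block, -0.0083 with a random block, -0.0087 with median centring, -0.020 with 75th percentile centring, -0.0074 with replicate set, -0.061 in replicates 1 and 2, and -0.077 to 0.070 leaving out 1 array. With quantile normalization Gpc1 between Treg and CD45RBhigh was -0.026 and Extl1 between CD45RBlow and CD45RBhigh 0.016. Leaving out 1 array gave -0.061 to 0.20 for that Gpc1 difference, -0.068 to 0.030 for that of Extl1, -0.11 to 0.046 for Hs3st3b1 and -0.16 to 0.0088 for Ndst1 between Treg and CD45RBlow. In replicates 1 and 2 Hpse was -0.0087 between Treg and CD45RBlow and Hs2st1 0.0094 between CD45RBlow and CD45RBhigh. In replicates 3 and 4 Ndst1 was -0.032 and Ext1 -0.11 between Treg and CD45RBhigh, Hs3st3b1 0.15 between Treg and CD45RBlow, and Ext1 -0.12 and Extl1 0.067 between CD45RBlow and CD45RBhigh. The cause of these changes was not tested. The other probe sets of a member were not tried, since each had 1.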

Other observations

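CD45RBhigh replicate 4 was the highest of its population for 8 of the 10 members (Gpc1, Hpse, Xylt2, Ext1, Ndst1, Hs2st1, Hs6st1 and Hs3st3b1) and the lowest for Sdc4. Over all probe sets the same array was the highest of its population at 32.3% and the lowest at 25.4%. Slc35d1 also read 6.55 on that array, against 5.41 to 5.61 on the other CD45RBhigh arrays. Treg replicate 4 was the highest Treg array for 6 of the 10 members and for 46.3% of all probe sets. Sulf2, an extracellular sulfatase that removes 6-O-sulfates, did not pass in any comparison in limma and read 4.57 to 5.09 in Treg, 4.03 to 4.68 in CD45RBlow and 4.06 to 4.93 in CD45RBhigh arrays.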
